A study of Mus musculus with 9 samples.

Results

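Clec3b, Prg4, Scn7a, Lgi2, Slc4a4, Dpt, Pi16, Mfap4 and Mfap5 are 9 genes known from connective tissue and its neighbors, and their expression was followed in 4T1 tumors of mice on a low-fat diet (LFD), on a high-fat diet (HFD), and on HFD with the inhibitor EC359. They were chosen by name from the 22609 genes of the count tables, with earlier results of these data in view, because their counts were higher in the HFD group than in the LFD group. The HFD and LFD values of these genes are therefore a description and carry no test. All 9 were among the 13366 genes that passed the filter on low counts, although Prg4, Lgi2 and Slc4a4 passed it only through the HFD libraries.

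RNA-seq was performed on whole tumors that grew from 4T1, a mammary carcinoma line of the mouse used as a model of triple-negative breast cancer. In all groups BALB/c mice that had been on their diet for 6 weeks received the cells orthotopically, in the fat pad of a mammary gland. The LFD group had 10% of its calories from fat, and the HFD group had 60%. The study states that this model received vehicle or EC359, and names a vehicle, hydroxypropyl cellulose, only for its MDA-MB-231 xenografts. The HFD + EC359 group had the high-fat diet and EC359, an inhibitor of the leukemia inhibitory factor receptor (LIFR). EC359 was given at 5 mg/kg by intraperitoneal injection on 5 days per week. There were 3 libraries per group and no library of LFD tumors treated with EC359, so the inhibitor was compared on 1 diet and at 1 dose. The labels give no age of the mice, and they do not say that the 3 libraries of a group came from separate animals, so p-values measure the spread between libraries. They call the tissue a cell line, but a tumor also holds host cells, and in bulk RNA fewer cells of a type and less RNA per cell cannot be told apart.

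The total count was 5085268 to 6509005 in the LFD libraries, 7314525 to 7922667 in the HFD libraries and 8043470 to 9750959 in the HFD + EC359 libraries. Levels are given in CPM, counts scaled to the effective library size, and 3 counts, the limit that a count of 0 allows, correspond to 0.3 to 0.614 CPM for counting error only. Pairs of libraries within a group differed by more than counting noise, with a mean chi-square per gene of 1.35 to 2.99, and the 2 highest values were those of the first LFD library against the other 2. The libraries also differed by base composition. The difference in log2 level, relative to the mean of all 9 libraries, between genes of low GC content (45.8% or less) and of high GC content (55.4% or more) was -0.54 to -0.32 in the LFD, 0.11 to 0.16 in the HFD and 0.25 to 0.30 in the HFD + EC359 libraries. The exons of the 9 genes have a GC content of 40.2% (Scn7a) to 60.2% (Clec3b). This trend was removed together with one on gene length. Their log2 fold change between HFD and LFD was then 1.30 to 3.40, as against 1.18 to 3.24 before.

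Fibroblasts build the extracellular matrix of a tissue, and in many organs a population around vessels and in the outer connective tissue layers, called adventitial or universal fibroblasts, is marked by Pi16, Dpt and Clec3b among others. Elastic fibers are laid down on a scaffold of microfibrils, made of fibrillins with which the small glycoproteins Mfap4 and Mfap5 associate. Scn7a and Slc4a4 encode membrane proteins that handle sodium and bicarbonate, Prg4 encodes the lubricant proteoglycan lubricin, and Lgi2 belongs to a family of secreted proteins best known from the nervous system. LIFR, the receptor that EC359 inhibits, signals through JAK kinases and STAT3.

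The reference table of promoters, from RefSeq on GRCm38.p6, held entries for Scn7a, Lgi2, Slc4a4, Dpt and Pi16, which are 5 of the 9 genes with 6 start sites in all. The 250 bases before the start are shown for 3 of them, with motif matches in capitals. Dpt is shown because it was the 1 gene of the 5 with the letters of a STAT site, TTCNNNGAA, 128 bases before its start. Pi16 is shown as the gene with the highest level, and both starts of Slc4a4 are shown because they differ in base composition. These sequences are on the strand of their gene.
Dpt, chr1:164796413-164796662, plus strand: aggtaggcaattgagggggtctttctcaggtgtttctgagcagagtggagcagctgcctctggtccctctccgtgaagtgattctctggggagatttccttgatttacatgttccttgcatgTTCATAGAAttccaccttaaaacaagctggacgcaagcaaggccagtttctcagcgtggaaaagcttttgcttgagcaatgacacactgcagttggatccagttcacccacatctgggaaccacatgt
Pi16, chr17:29318632-29318881, plus strand: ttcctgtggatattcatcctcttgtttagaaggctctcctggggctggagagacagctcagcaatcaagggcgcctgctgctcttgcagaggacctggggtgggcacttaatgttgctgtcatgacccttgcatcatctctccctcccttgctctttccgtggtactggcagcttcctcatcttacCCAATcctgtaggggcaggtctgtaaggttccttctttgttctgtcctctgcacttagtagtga
Slc4a4, upstream start, chr5:88887010-88887259, plus strand: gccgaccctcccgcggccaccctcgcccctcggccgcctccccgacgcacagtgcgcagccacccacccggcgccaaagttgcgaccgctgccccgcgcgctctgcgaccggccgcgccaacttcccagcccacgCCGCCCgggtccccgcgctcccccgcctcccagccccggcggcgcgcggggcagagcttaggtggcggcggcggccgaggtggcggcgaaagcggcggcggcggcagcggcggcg
Slc4a4, downstream start, chr5:89027716-89027965, plus strand: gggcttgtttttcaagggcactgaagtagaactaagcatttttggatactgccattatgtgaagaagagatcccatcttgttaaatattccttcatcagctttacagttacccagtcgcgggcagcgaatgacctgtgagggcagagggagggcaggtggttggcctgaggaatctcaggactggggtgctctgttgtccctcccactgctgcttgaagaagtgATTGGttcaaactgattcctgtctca
The STAT letters were found in 7.02% of the 32851 promoters of that table, searched on both strands. Pi16, Lgi2 and the downstream start of Slc4a4 held CCAAT, as did 33.8% of all promoters, and Lgi2, Scn7a and the upstream start of Slc4a4 held the GC box GGGCGG, as did 32.7%. The TEAD letters GGAATG (12.6% of all promoters) were in that of Scn7a. The letters TGANTCA of AP-1 (6.75%) and TATAAA (12.4%) were in no window of the 5 genes. The upstream start of Slc4a4 had 44 CpG dinucleotides and 82% GC, and its downstream start had 3 CpG and 48.8% GC, against a median of 6 CpG over all promoters.

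The pattern over the 3 groups was the same in outline for the 9 genes. Each was at its highest in the 3 HFD libraries, and in none of the 9 did an HFD library overlap an LFD library or an HFD + EC359 library. All 3 HFD libraries stood above all 3 LFD libraries in 28.5% of the tested genes, and all 3 HFD + EC359 libraries stood below all 3 HFD libraries in 20.7%. The summed level of the 9 genes was 33.55 to 34.89 CPM in the LFD libraries, 104.7 to 112.2 CPM in the HFD libraries and 41.79 to 43.06 CPM in the HFD + EC359 libraries. Pi16 alone made up 59.28% to 65.66% of this sum in the LFD libraries and 39.25% to 49.88% in the HFD libraries. Without Pi16 the sum was 11.87 to 14.13, 53.84 to 68.15 and 18.17 to 19.41 CPM, so the order of the groups did not rest on that gene.

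**Figure D1:**
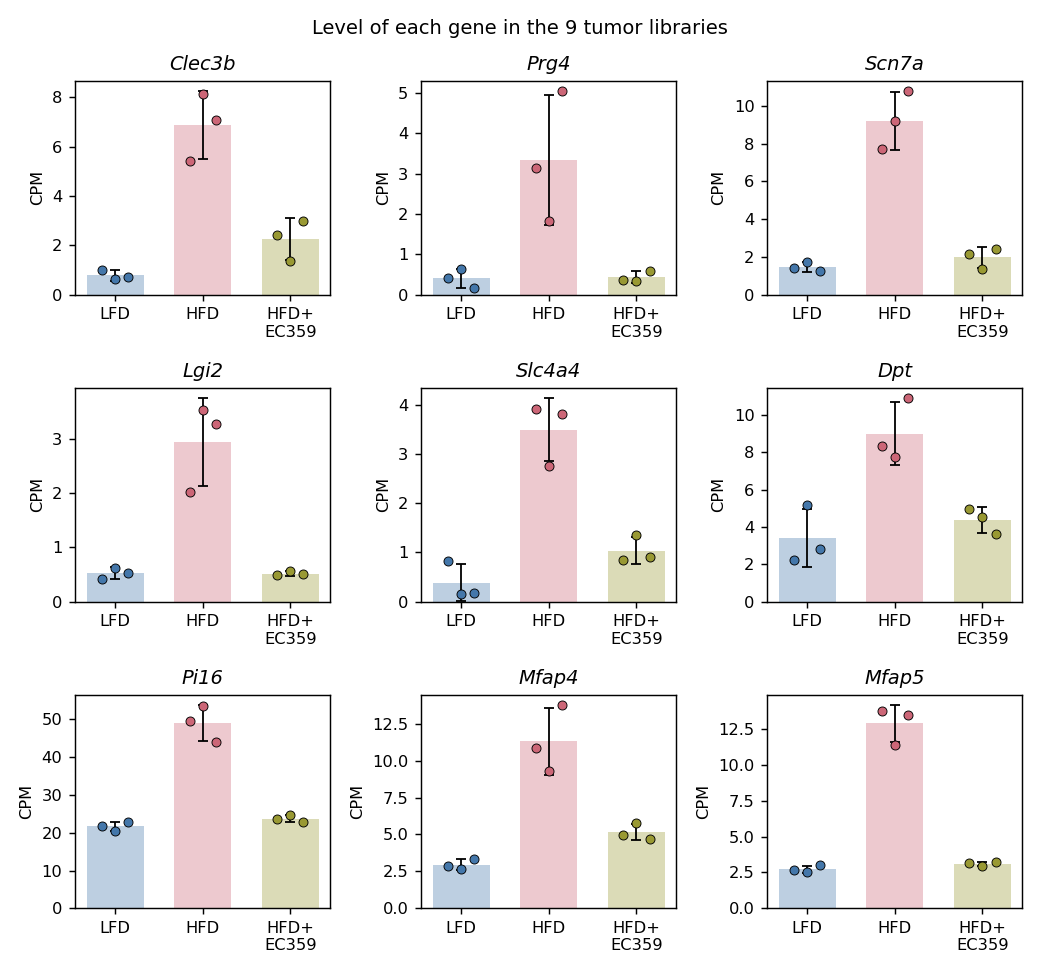
Level of each of the 9 genes in CPM (vertical axis, linear, each panel with its own scale) in the 3 libraries of each group; bars are means, whiskers 1 SD, points libraries. In every panel the 3 HFD points lie above all points of the other groups, and Slc4a4, Clec3b and Mfap4 are the panels in which the HFD + EC359 points also lie above all LFD points.

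Mfap5, Mfap4 and Dpt encode proteins that are built into the matrix. Mfap5 (chr6:122463694-122479305 on mm9, plus strand, 10 exons), also called MAGP-2, binds fibrillin in microfibrils. Its level was 2.66, 2.51 and 3.00 CPM in the LFD libraries, 13.8, 11.4 and 13.5 CPM in the HFD libraries, and 3.15, 2.93 and 3.20 CPM in the HFD + EC359 libraries. The LFD and HFD + EC359 ranges overlapped, and the HFD libraries stood well above both. Between HFD and LFD the log2 fold change was 2.24 ± 0.20 (SE), from means of 12.9 ± 1.29 and 2.72 ± 0.25 CPM (SD, n = 3).

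Mfap4 (chr11:61298946-61302206, plus strand, 6 exons) encodes a glycoprotein that binds elastin, fibrillin and collagen. It measured 2.86, 2.67 and 3.35 CPM in the LFD libraries, 10.8, 9.30 and 13.8 CPM in the HFD libraries, and 4.97, 5.76 and 4.70 CPM in the HFD + EC359 libraries. The 3 groups did not overlap, with HFD + EC359 between the other two. The log2 fold change between HFD and LFD was 1.93 ± 0.22 (SE).

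Dpt (chr1:166726863-166754397, plus strand, 4 exons) encodes dermatopontin, which binds decorin and takes part in collagen fibril assembly. The LFD libraries were unequal, at 2.25, 5.18 and 2.82 CPM, whereas the HFD libraries were at 8.32, 7.73 and 10.9 CPM and the HFD + EC359 libraries at 4.97, 4.51 and 3.60 CPM. The second LFD library was the highest of the 6 libraries outside the HFD group. The log2 fold change between HFD and LFD was 1.34 ± 0.24 (SE), and it was 1.80 without that library.

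Pi16, Clec3b, Prg4 and Lgi2 encode secreted or surface-bound proteins. Pi16 (chr17:29455827-29465847, plus strand, 7 exons), a peptidase inhibitor of the CAP family, was the most abundant and the most even of the 9. It measured 21.7, 20.6 and 22.9 CPM in the LFD libraries, 49.6, 53.6 and 44.0 CPM in the HFD libraries, and 23.7, 24.7 and 22.9 CPM in the HFD + EC359 libraries. The HFD + EC359 range touched the top of the LFD range. It also had the smallest log2 fold change between HFD and LFD among the 9, 1.18 ± 0.10 (SE).

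Clec3b (chr9:123060064-123066550, plus strand, 3 exons) encodes tetranectin, a C-type lectin that binds plasminogen. It rested on 5, 4 and 4 counts in the LFD libraries, 43, 62 and 52 in the HFD libraries, and 20, 12 and 30 in the HFD + EC359 libraries. In CPM these were 1.02, 0.628 and 0.705 against 5.42, 8.12 and 7.09, with 2.43, 1.35 and 3.00 under EC359. The groups did not overlap, and the log2 fold change between HFD and LFD was 3.13 ± 0.35 (SE).

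Prg4 (chr1:152296542-152313295, minus strand, 13 exons) overlaps Tpr on the other strand, and the counting took strand into account. It had 2, 4 and 1 counts in the LFD libraries, 25, 14 and 37 in the HFD libraries, and 3, 3 and 6 in the HFD + EC359 libraries. The HFD libraries differed among themselves, from 1.83 to 5.04 CPM, with a mean of 3.34 ± 1.61 CPM (SD, n = 3). With so few counts outside the HFD group, the ratio of summed counts is the plainest measure, and per effective library size it was 8.03 for HFD over LFD, with an exact 95% interval of 3.71 to 20.6 for counting error.

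Lgi2 (chr5:52929103-52957519, minus strand, 7 exons) had 2, 4 and 3 counts in the LFD libraries, 16, 27 and 24 in the HFD libraries, and 4, 5 and 5 in the HFD + EC359 libraries. The corresponding ranges were 0.409 to 0.628 CPM, 2.02 to 3.54 CPM and 0.485 to 0.564 CPM, so the HFD + EC359 libraries lay inside the LFD range. The ratio of summed counts of HFD over LFD was 5.50 (exact 95% interval 2.73 to 12.6).

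Scn7a and Slc4a4 are the membrane proteins among the 9. Scn7a (chr2:66511483-66622967, minus strand, 25 exons) encodes the sodium channel Nax, which responds to the sodium concentration. It measured 1.43, 1.73 and 1.23 CPM in the LFD libraries, 7.69, 9.17 and 10.8 CPM in the HFD libraries, and 2.18, 1.35 and 2.40 CPM in the HFD + EC359 libraries. The second HFD + EC359 library fell inside the LFD range and the other two stood above it. The log2 fold change between HFD and LFD was 2.62 ± 0.27 (SE).

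Slc4a4 (chr5:89316285-89668681, plus strand, 26 exons) encodes the electrogenic sodium bicarbonate cotransporter NBCe1. It had 4, 1 and 1 counts in the LFD libraries, 31, 21 and 28 in the HFD libraries, and 7, 12 and 9 in the HFD + EC359 libraries. The first LFD library, at 0.818 CPM, was close to the lowest HFD + EC359 library, at 0.849 CPM, while the other two LFD libraries were at 0.157 and 0.176 CPM. The ratio of summed counts of HFD over LFD was 9.86 (exact 95% interval 4.34 to 27.7), the largest of the 9, and the log2 fold change of 3.24 became 4.27 without the first LFD library.

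Over the 9 genes the log2 fold change between HFD and LFD had a median of 2.43, against 0.007 over all tested genes. All 9 passed the thresholds for fold change (more than 2) and adjusted p (less than 0.01) that the study's methods give, as did 3.02% of the tested genes in that direction. This count follows from how the genes were chosen.

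Levels of different genes were compared per kilobase of exon. In the HFD libraries Pi16 led with a mean of 21.9 CPM per kb, followed by Mfap5 at 9.13, Mfap4 at 7.47, Clec3b at 6.93 and Dpt at 5.49 CPM per kb. The libraries of Pi16 were separate from those of Mfap5, while each of the next 4 overlapped its neighbor in the order. Lgi2 (1.53), Scn7a (1.26), Prg4 (0.782) and Slc4a4 (0.466 CPM per kb) formed the lower end, again with overlap between neighbors, and the libraries of Lgi2 were separate from those of Dpt. Scn7a had more counts than Lgi2 in every library, but its transcript is 7333 bases long and that of Lgi2 1927, so per length their levels overlapped in all 3 groups.

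The order was not the same in the other groups. Clec3b was at 0.792 CPM per kb in the LFD libraries, separate from and below Dpt (2.09), Mfap4 (1.96) and Mfap5 (1.93 CPM per kb), whose libraries overlapped. In the HFD + EC359 libraries Clec3b, at 2.28 CPM per kb, overlapped Dpt at 2.67 and Mfap5 at 2.20, and Mfap4 stood separate above these at 3.40 CPM per kb. Pi16 led in both groups, at 9.68 CPM per kb in the LFD and 10.6 in the HFD + EC359 libraries.

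**Figure D2:**
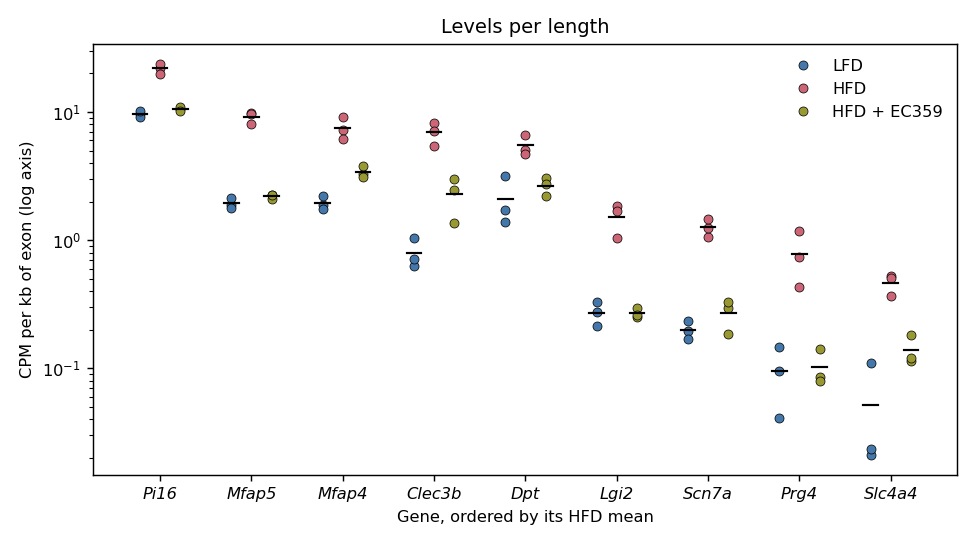
Level of each gene per kilobase of exon (vertical axis, CPM per kb, log axis) in each library, with genes ordered by their HFD mean; points are libraries and lines are group means. Pi16 is highest in each group, the next 4 genes lie between 4 and 10 CPM per kb in the HFD libraries, and the last 4 lie below 2 CPM per kb in every library.

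The second question was how the 9 genes differed between HFD tumors with and without EC359. All 9 were more than 2-fold lower with EC359, and 1.38% of all tested genes were lower at both thresholds. The median log2 fold change of the 9 was -1.74, and that of all tested genes was 0.006. The HFD libraries of this comparison are those by which the genes were chosen, so the comparison is not independent of the choice, and nothing is read from how many of the 9 were lower. No p is given for Lgi2, Slc4a4 and Prg4, which passed the filter on low counts only through those libraries, and Prg4 had also been named for this comparison in earlier results. The p-values of the other 6 come from edgeR's quasi-likelihood fit.

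Among the matrix genes Mfap5 had the largest log2 fold change, -2.05 ± 0.17 (SE, edgeR adjusted p = 2.06e-11). Mfap4 fell by 1.13 ± 0.17 on the log2 scale (edgeR adjusted p = 3.47e-06) and Dpt by 1.05 ± 0.20 (edgeR adjusted p = 0.000162). In each of these the 3 HFD + EC359 libraries were below the 3 HFD libraries. Mfap4 and Dpt lay close to the fold threshold and dropped below it without the third HFD library, at -0.98 and -0.89, and Dpt also without the third HFD + EC359 library, at -0.92.

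Of the secreted proteins, Clec3b fell by 1.58 ± 0.24 on the log2 scale (edgeR adjusted p = 5.69e-06), from 6.88 ± 1.36 to 2.26 ± 0.84 CPM (SD, n = 3). Pi16 fell by 1.05 ± 0.09 (edgeR adjusted p = 1.54e-11), from 49.1 ± 4.80 to 23.8 ± 0.91 CPM. Its standard error was the smallest of the 9. However, its log2 fold change was -0.98, under the fold threshold, without the second HFD library and also with the GC and length trend removed. The summed counts of Lgi2 were 5.67-fold higher in the HFD than in the HFD + EC359 libraries (exact 95% interval 3.15 to 10.9), with a log2 fold change of -2.47 ± 0.38. For Prg4 this ratio was 7.5 (4.05 to 15.1). Both are given as a description.

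Both membrane proteins were lower as well. Scn7a fell by 2.20 ± 0.22 on the log2 scale (edgeR adjusted p = 1.66e-09). Slc4a4 had a log2 fold change of -1.74 ± 0.33, given as a description. The lowest HFD library of Slc4a4, at 2.75 CPM, was above the highest HFD + EC359 library, at 1.35 CPM.

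**Figure D3:**
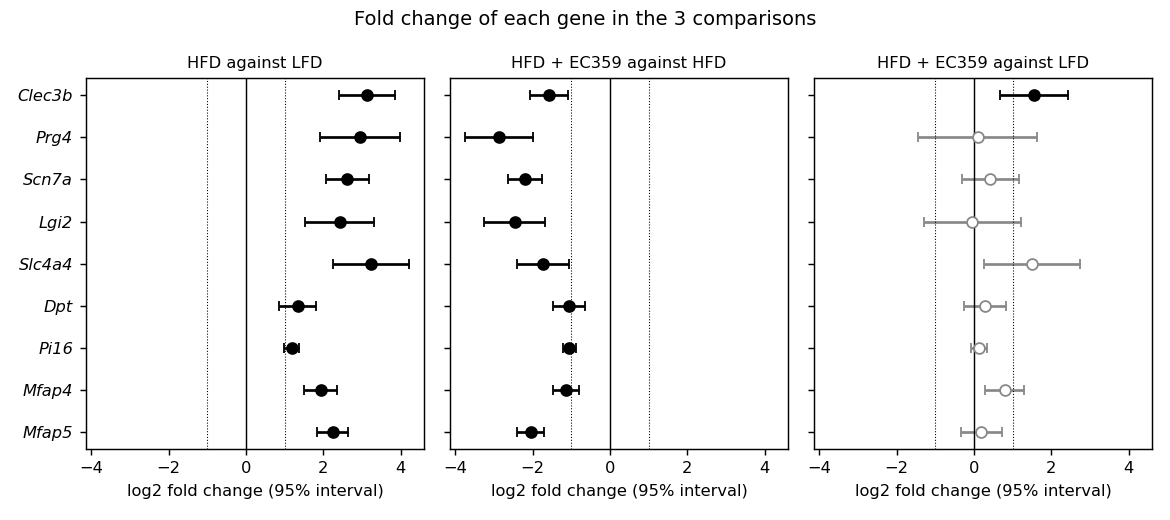
Log2 fold change of each gene (horizontal axis) with its 95% interval in the 3 comparisons. Filled points passed the thresholds for fold change (2, dotted lines) and adjusted p (0.01) in the fit, and open points did not. This is a description alone in the first panel and for Prg4, Lgi2 and Slc4a4 in the other panels. All 9 lie right of the upper line for HFD against LFD and left of the lower line for HFD + EC359 against HFD, and for HFD + EC359 against LFD only Clec3b is filled.

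The third comparison set the HFD + EC359 tumors against the LFD tumors and asked how far each gene stood from its LFD level. Clec3b alone of the 9 was higher at both thresholds, with a log2 fold change of 1.55 (95% interval 0.67 to 2.43, edgeR adjusted p = 0.00271) and 3 of 3 HFD + EC359 libraries above the LFD libraries. At these thresholds 3.66% of all tested genes were higher. The call on Clec3b was lost without the second LFD library, the third LFD library or the third HFD + EC359 library, where its log2 fold change was 1.40, 1.49 and 1.26. The LFD libraries are shared with the comparison that chose the genes.

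Mfap4 and Slc4a4 were the other two genes with all HFD + EC359 libraries above all LFD libraries, and 31.8% of the tested genes were separated in this way. Mfap4 differed by 0.79 on the log2 scale (95% interval 0.30 to 1.29, edgeR adjusted p = 0.00605), which is under a fold of 2. Slc4a4 differed by 1.5 (0.26 to 2.74). In this comparison too no p is given for Slc4a4, Prg4 and Lgi2, which passed the filter on low counts only through the HFD libraries. Without the first LFD library, the one with 4 counts, the log2 fold change of Slc4a4 was 2.53.

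With the p threshold at 0.05 and none for the fold, Clec3b and Mfap4 were higher, as were 29.2% of the tested genes. In the 6 genes other than Clec3b, Mfap4 and Slc4a4 the libraries of the groups overlapped. The log2 fold change was 0.43 in Scn7a (95% interval -0.30 to 1.16), 0.29 in Dpt (-0.25 to 0.83), 0.19 in Mfap5 (-0.34 to 0.71) and 0.13 in Pi16 (-0.08 to 0.34). For these 4 the edgeR adjusted p was 0.313, 0.358, 0.549 and 0.293. The intervals were narrow for Pi16 and wide for the genes with the fewest counts. The log2 fold change was 0.09 (-1.45 to 1.64) in Prg4 and -0.04 (-1.29 to 1.21) in Lgi2. For Prg4 and Lgi2 the interval held a 2-fold difference in either direction. With the GC and length trend removed the sign turned in Prg4, Scn7a, Lgi2 and Mfap5, with log2 fold changes of -0.03, -0.09, 0.02 and -0.03.

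The distance from the LFD mean that was left under EC359, as a percentage of the distance between the HFD and LFD means, was 26.2% in Mfap4, 24.2% in Clec3b, 20.9% in Slc4a4 and 17.0% in Dpt. It was 7.44% in Pi16, 6.65% in Scn7a, 3.68% in Mfap5, 1.01% in Prg4 and -0.23% in Lgi2. These are ratios of means of 3 libraries, were not tested against each other, and moved with single libraries. Dpt was at 7.26% without the first and 28.3% without the second LFD library, and Scn7a at 3.93% without the third and 10.7% without the second HFD + EC359 library. Prg4 was at -2.99% without the third and 4.64% without the second LFD library, and Lgi2 at -2.62% without the first and 1.92% without the second. The other 5 stayed within 1.5 times of the values given. The median log2 fold change of the 9 between HFD + EC359 and LFD was 0.29.

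Over the 9 libraries the log2 CPM of the genes moved together, which the shared group differences set in large part. Pearson's r over the 36 pairs had a median of 0.885. It was highest between Pi16 and Mfap5, at 0.979, and lowest between Slc4a4 and Dpt, at 0.737. Slc4a4 was highest among the LFD libraries in the first and Dpt in the second.

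Among 13300 other genes at a mean of at least 1 CPM, 62 had r above 0.95 with the mean profile of the 9, and 196 (1.47%) had r above 0.9, over the same 9 libraries. The 10 most alike were Tnxb, Aplnr, Sfrp2, A2m, Nid1, Lox, C130074G19Rik, Shank3, Spon1 and Cxcl12, with r from 0.992 to 0.982. Tnxb, which encodes the matrix glycoprotein tenascin-X, led with 25.8 ± 2.82 CPM in the LFD, 132.9 ± 5.45 in the HFD and 35.02 ± 2.43 in the HFD + EC359 group (SD, n = 3). Lox, the lysyl oxidase that crosslinks collagen and elastin, was at 18.6 ± 1.04, 62.7 ± 0.91 and 21.2 ± 1.83 CPM. A2m, the protease inhibitor alpha-2-macroglobulin, was listed at 0 in the 3 LFD libraries and measured 4.62 ± 0.89 and 0.292 ± 0.156 CPM in the HFD and HFD + EC359 groups. These genes were ranked by the group pattern, so their levels describe it and do not test it.

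The other genes of the microfibrils and elastic fibers, on which Mfap4 and Mfap5 sit, were taken from a list of 22, of which 21 were tested. Mfap1a, Mfap1b, Mfap3 and Mfap3l are in this list for their shared symbol and are not established parts of these fibers. Between HFD and LFD, 3 rose, namely Efemp1, Fbn2 and Lox, and none fell, with a median log2 fold change of 0.38. In edgeR 13 had an adjusted p under 0.05 with higher values, Mfap1a, Mfap1b and Mfap3 among them, and 5 with lower values, and those 5 missed the fold. At an unadjusted p under 0.05 these counts were the same, and DESeq2 called none lower. Efemp1, a fibulin, rose from 0.615 to 4.44 CPM (log2 fold change 2.88 ± 0.40 SE, edgeR adjusted p = 3.25e-07). Fbn2, a fibrillin, rose from 6.55 to 19.1 CPM (1.52 ± 0.17, edgeR adjusted p = 3.27e-09).

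With EC359, 6 of the 21 fell against HFD and none rose, with a median of -0.38. At an unadjusted p under 0.05 in edgeR 3 were higher, Mfap1a and Mfap3l among them, and 13 lower, and DESeq2 called 0 higher. Fbn2 fell to 5.32 CPM (-1.85 ± 0.15, edgeR adjusted p = 2.17e-11), whereas Efemp1, at 2.45 CPM, had a log2 fold change of -0.85 (edgeR adjusted p = 0.0126). Mfap2, the close relative of Mfap5 also called MAGP-1, measured 3.60, 5.91 and 1.64 CPM in the 3 groups. It had a log2 fold change of 0.73 between HFD and LFD (edgeR adjusted p = 0.0129), and fell by 1.82 ± 0.26 with EC359 against HFD (edgeR adjusted p = 1.22e-06). Efemp1 was also higher in HFD + EC359 than in LFD tumors at both thresholds, by 2.03 ± 0.44 on the log2 scale (edgeR adjusted p = 0.0002), and Mfap2 was lower there, at -1.09 ± 0.30 (edgeR adjusted p = 0.0027). The count of 1 lower gene became 0 without the third LFD library, without the first HFD + EC359 library, with thinned counts and with the GC trend removed.

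The most abundant genes of this list per length, Fbln2, Ltbp2 and Ltbp3, did not pass the thresholds between HFD and LFD, with log2 fold changes of -0.47, -0.33 and -0.03. The summed level of the list was 5458 to 5884 CPM in the LFD libraries, 4843 to 4913 in the HFD and 4439 to 4520 in the HFD + EC359 libraries. The summed level was therefore not highest in the HFD libraries, unlike Mfap4 and Mfap5. This sum is weighted to the most abundant genes. Gene by gene, 13 were higher and 5 lower in HFD than in LFD tumors at an edgeR adjusted p under 0.05.

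Pi16, Dpt and Clec3b were set beside 18 further genes known from adventitial fibroblasts, of which 15 were tested. Between HFD and LFD, Cd34, Dpp4, Has1, Tnxb and Gfpt2 rose and Scara5 fell, with a median log2 fold change of 0.45. Gfpt2, an enzyme of the hexosamine pathway, rose from 2.08 to 11.3 CPM (2.48 ± 0.24, edgeR adjusted p = 3.04e-10) and fell to 3.40 CPM with EC359 (-1.73 ± 0.19, edgeR adjusted p = 1.06e-08). Has1, a hyaluronan synthase, measured 0.893, 2.37 and 0.358 CPM, with log2 fold changes of 1.40 ± 0.42 and -2.62 ± 0.44. Has1 passed the filter on low counts only through the HFD libraries, so its calls are a description and no p is given. Its first call was lost with DESeq2 (1.41), and without the first or the second LFD library (1.35 and 1.16) or the second or the third HFD library (1.31 and 1.33).

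The third gene of this list that fell with EC359 was Tnxb, by 1.92 ± 0.06 on the log2 scale (edgeR adjusted p = 3.93e-22). Scara5, a ferritin receptor, was at 18.9, 9.21 and 15.4 CPM in the LFD, HFD and HFD + EC359 groups, and fell between HFD and LFD by 1.02 ± 0.16 (edgeR adjusted p = 1.72e-06). That value was close to the threshold and was lost without the third LFD library (-0.91) or the second or the third HFD library (-0.89 and -0.96). The 3 most abundant per length, Anxa3, Ly6a and Procr, had log2 fold changes of -0.43, -0.23 and -0.21 between HFD and LFD and did not pass. No gene of the list was called between HFD + EC359 and LFD by edgeR or DESeq2, with 6 higher and 5 lower at an unadjusted p under 0.05 in edgeR. Without the first LFD library 2 were called higher there, and without the third HFD + EC359 library 1 was. The summed level was 319.3 to 336.9 CPM in the LFD, 427.1 to 434.2 in the HFD and 283.5 to 295.1 in the HFD + EC359 libraries.

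General fibroblast genes formed a list of 19, all tested. Between HFD and LFD 6 rose and none fell, with a median of 0.25. At an unadjusted p under 0.05 in edgeR 13 were higher and 6 lower, and DESeq2 called 0 lower. With EC359 7 fell against HFD and none rose, with a median of -0.55. At that unadjusted p 4 were higher and 12 lower, and DESeq2 called 0 higher. Col14a1, a collagen of fibril surfaces, was called in both comparisons, with 12.2, 54.3 and 12.7 CPM and log2 fold changes of 2.16 ± 0.11 (edgeR adjusted p = 1.39e-17) and -2.10 ± 0.09 (edgeR adjusted p = 1.53e-18). Dcn, which encodes decorin, the partner of dermatopontin, rose from 27.3 to 76.2 CPM (1.46 ± 0.09, edgeR adjusted p = 6.15e-15) and was at 70.0 CPM with EC359 (-0.12 ± 0.07, edgeR adjusted p = 0.221). In this comparison Dpt passed the thresholds and Dcn did not, and whether their changes differ was not tested.

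The fibrillar collagen genes had another profile. Col1a1 measured 4212, 6870 and 1613 CPM and Col1a2 1915, 3263 and 781 CPM in the LFD, HFD and HFD + EC359 groups. Both missed a fold of 2 between HFD and LFD, at 0.71 and 0.77 on the log2 scale, and both fell with EC359, with log2 fold changes of -2.09 ± 0.05 (edgeR adjusted p = 1.37e-27) and -2.06 ± 0.04 (edgeR adjusted p = 1.22e-27). Both were also lower in HFD + EC359 than in LFD tumors, with log2 fold changes of -1.38 and -1.29 (edgeR adjusted p = 3.97e-22 and 1.42e-21), a comparison in which 1.43% of all tested genes were called lower and Lgi2, the 1 gene of the 9 with a negative log2 fold change, was at -0.04. With the third gene, Col3a1, 3 genes of the list were called lower there, and 1 with the GC trend removed. The summed level of the list was 14690 to 16480 CPM in the LFD, 19370 to 20230 in the HFD and 9200 to 9372 in the HFD + EC359 libraries, so the HFD + EC359 libraries were the lowest. The summed level of the 9 genes was instead higher in the HFD + EC359 than in the LFD libraries. Gene by gene, 3 of the 9 were separated in this way and 6 overlapped.

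The families of the other 5 genes were small in these tumors. Of the 6 listed relatives and receptors of Lgi2, 4 were tested and none was called in any comparison by edgeR or DESeq2. At an unadjusted p under 0.05 there was 1, lower in HFD + EC359 than in LFD tumors, and the 2 most abundant per length were Adam11 and Lgi4. Of 13 further sodium channel genes 5 were tested and none was called by either tool, with 1 higher and 2 lower at an unadjusted p under 0.05 between HFD and LFD, and 2 higher and 2 lower between HFD + EC359 and HFD. Of the 13, 7 were under 1 CPM in every library.

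Of 16 bicarbonate transporter and carbonic anhydrase genes beside Slc4a4, 12 were tested. Slc4a8, which exchanges sodium and bicarbonate for chloride, fell between HFD and LFD from 21.5 to 10.6 CPM (-1.02 ± 0.14, edgeR adjusted p = 2.54e-07), opposite to the direction of Slc4a4, and no other passed. The call was lost without the third LFD library (-0.96) or the second HFD library (-0.94). None was called between HFD + EC359 and HFD by edgeR or DESeq2, with 2 higher and 3 lower at an unadjusted p under 0.05. Slc4a2 and Car9, the most abundant per length, had log2 fold changes of -0.36 and -0.07 between HFD and LFD.

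Of 12 CAP family genes beside Pi16, 7 were at 0 in all libraries and 4 were tested. Glipr1 rose between HFD and LFD from 2.59 to 6.32 CPM (1.25 ± 0.26, edgeR adjusted p = 0.000146), a call that was lost without the first LFD library at 0.96, and it was at 6.83 CPM with EC359. No gene of this list was called between HFD + EC359 and HFD by edgeR or DESeq2, with 1 lower at an unadjusted p under 0.05. Of 11 genes of the plasminogen system, to which tetranectin binds, 7 were tested. Plat, the tissue plasminogen activator, rose between HFD and LFD from 26.3 to 55.2 CPM (1.07 ± 0.08, edgeR adjusted p = 1.55e-12), and with EC359 it was at 41.5 CPM (-0.41 ± 0.07). No gene of that list was called with EC359 against HFD by either tool, with 2 higher and 3 lower at an unadjusted p under 0.05. Plasminogen itself, Plg, and Clec3a, the relative of Clec3b, were at 0 in all 9 libraries.

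Markers of other cell types moved with the groups, and their part in the levels of the 9 genes was not tested. The summed level of 11 epidermis markers, of which 10 were in the files, was 1153 to 1325 CPM in the LFD, 180.1 to 194.2 in the HFD and 567.6 to 574.5 in the HFD + EC359 libraries, the reverse of the 9 genes. Of these 10, 7 fell between HFD and LFD and 8 rose with EC359 against HFD. Luminal epithelial markers had 1123 to 1147, 706.4 to 716.4 and 768.3 to 800.1 CPM, and Epcam, Cdh1 and Esrp1 fell with HFD and rose with EC359.

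Endothelial markers summed to 220.1 to 232.1 CPM in the LFD, 401.1 to 425.5 in the HFD and 332.1 to 342.5 in the HFD + EC359 libraries, with Cdh5 and Emcn called higher in HFD than in LFD tumors and Vwf called lower with EC359. Pericyte markers summed to 167.4 to 177.2, 193.6 to 201.3 and 133.3 to 141.6 CPM, with Rgs5 and Abcc9 called higher in HFD tumors. Myofibroblast markers summed to 634 to 658.9, 687.2 to 729.4 and 432.8 to 435 CPM, with Lrrc15 called higher in HFD tumors and Acta2, Tagln and Lrrc15 called lower with EC359. Each of these 3 lists was highest in the HFD libraries.

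Adipocyte markers summed to 51.96 to 57.31 CPM in the LFD, 76.89 to 80.41 in the HFD and 73.79 to 81.25 in the HFD + EC359 libraries. Cfd, Lpl and Fabp4 were called higher and Plin4 lower between HFD and LFD, and no adipocyte marker was called with EC359 against HFD by edgeR or DESeq2 (3 higher and 1 lower at an unadjusted p under 0.05). The defining markers Adipoq, Lep, Retn and Pck1 were under 1 CPM in every library. Schwann cell markers, considered because Scn7a and Lgi2 are also known from nervous tissue, summed to 33.44 to 40.36, 38.34 to 43.07 and 33.8 to 35.91 CPM. Ncam1 was called higher in HFD tumors and lower with EC359, and S100b, Mal, Cdh19 and Foxd3 were under 1 CPM in every library.

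Mesothelial markers, considered because Prg4 is also known from mesothelium, summed to 46.03 to 52.87 CPM in the LFD, 35.06 to 39.53 in the HFD and 41.73 to 51.39 in the HFD + EC359 libraries, and Upk3b, Upk1b, Wt1, Lrrn4 and Gpm6a were under 1 CPM in every library. Most of this sum was Bnc1, at 42.2, 31.8 and 43.7 CPM in the 3 groups. Msln had another order, at 6.17, 3.90 and 2.27 CPM. It was called lower in HFD + EC359 than in LFD tumors (-1.42 ± 0.24, edgeR adjusted p = 6.35e-06). Skeletal muscle markers summed to 143.8 to 155.1, 160.5 to 167.6 and 130.4 to 137.3 CPM, with Ckm called higher and Myh1 lower in HFD tumors. With EC359 against HFD, Myh1 and Myh2 were called higher and Ckm and Myh4 lower. Macrophage markers summed to 1448 to 1478, 1402 to 1420 and 1790 to 1815 CPM, and none was called in any comparison by edgeR or DESeq2, although at an unadjusted p under 0.05 7 of 7 were higher with EC359 against both HFD and LFD, and 4 were higher and 1 lower between HFD and LFD. Without the second LFD library 1 macrophage marker was called higher in HFD + EC359 than in LFD tumors. Of the other marker counts given here, those that fell by more than 1.5 times without 1 library were muscle in HFD tumors (Ckm, without the second LFD library), pericytes (1 of 2, without the first LFD library) and endothelium with EC359 (Vwf, without the first HFD or the first HFD + EC359 library).

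**Figure D4:**
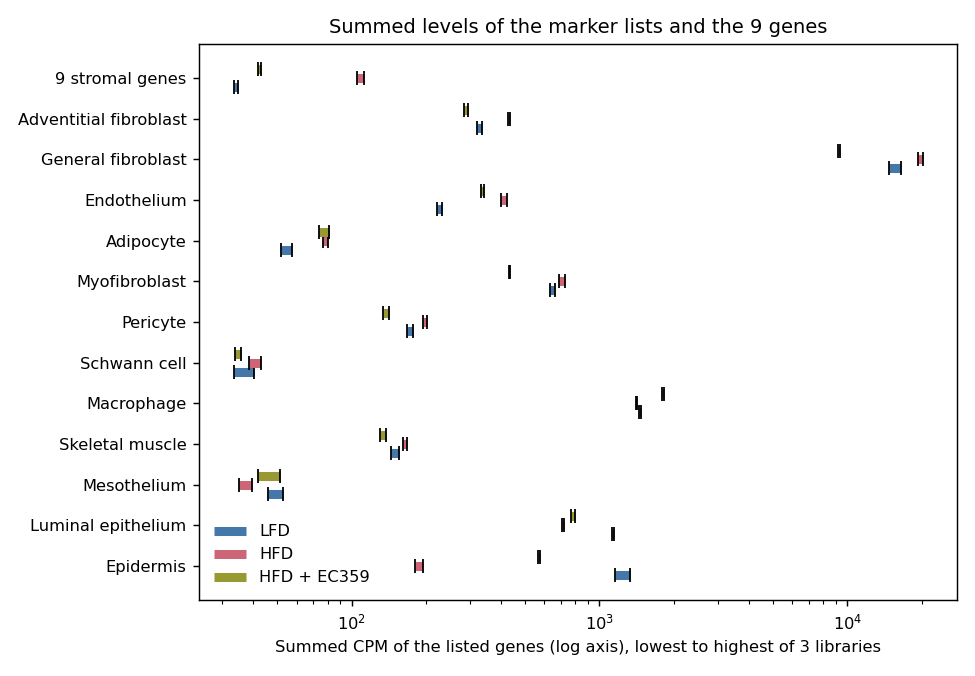
Summed level of the 9 genes and of each marker list (horizontal axis, CPM, log axis), drawn from the lowest to the highest of the 3 libraries of a group. Each sum is weighted to the most abundant genes of its list. The HFD bar lies to the right of both other groups for the 9 genes and for the adventitial, general fibroblast, endothelial, myofibroblast, pericyte and skeletal muscle lists, and to the left of both for the epidermis, luminal, mesothelial and macrophage lists.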

How the data were processed

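The files of the 9 libraries held expected counts of read pairs per gene, which the authors deposited without normalization. Per the file headers they were made with featureCounts 1.5.0-p1 on mm9 annotation, with strand taken into account and fractional counts for a read pair that matched more than 1 gene or position. The submitters' notes name HISAT2 2.1.0 as the aligner, whereas the methods of the study name TopHat2 and HTSeq. Fractional counting can move reads between related genes.

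The expected counts were rounded and genes were filtered with filterByExpr by group, which left 13366 of 22609. One edgeR 4.0.16 quasi-likelihood model with TMM factors and 3 groups was fitted to all 9 libraries in R 4.3.3 (limma 3.58.1), and p-values were adjusted by the Benjamini-Hochberg method over all tested genes. The thresholds for fold change (2) and adjusted p (0.01) are those of the study's methods. Standard errors of log2 fold changes came from the fit, and the interval of a ratio of summed counts is exact and covers counting error only. Exon lengths and coordinates are those of the files (mm9). The fit was tested on simulated data.

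The 9 genes and the lists were chosen with earlier results of these data known. Named by rule were the 9 genes, of each list its 2 or 3 most abundant genes per length and its largest change past the thresholds, and the 10 genes most alike. Of the marker lists only genes that spell out a count, and Bnc1, were named. Those, other genes that spell out a count of 5 or fewer, Mfap1a, Mfap1b, Mfap3, Mfap3l and Col3a1 were chosen after their values were seen. Results of some genes of the lists are not reported here. Likeness was Pearson's r over 9 libraries on log2 CPM with a prior count of 2. Replicate numbers did not pair the libraries, with r of -0.0296 to 0.0169 between deviations of libraries with the same number. The alternatives were DESeq2 1.42.0, RLE factors, library totals, 2 other filters on low counts, a p threshold of 0.05 without one for the fold, fits to the 6 libraries compared, the replicate number as a block, counts thinned to the smallest library, the GC and length trend removed, and each library left out in turn.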

Additional observations from a re-analysis of the deposited data

How the results depend on the processing

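Of the values recomputed under the alternatives, 392 of 411 were unchanged for HFD against LFD and 369 of 376 for HFD + EC359 against HFD. For HFD + EC359 against LFD 145 of 161 were unchanged and 9 reversed. Unchanged meant the same direction and the same side of the thresholds. For the 9 genes between HFD and LFD, and for Prg4 with EC359 against HFD, it meant the same direction and a shift below the SD within groups. The causes were not tested except where the alternative itself removes genes or libraries.

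The number of genes called was 761, 462 and 680 in the 3 comparisons, and it was 356, 213 and 418 among genes that reached 10 counts in each of the libraries, a filter that only Dpt, Pi16, Mfap4 and Mfap5 pass. Counts of the 9 genes lower with EC359 against HFD, or higher in HFD + EC359 than in LFD tumors, are descriptions of the fit. They cover Prg4, Lgi2 and Slc4a4, for which no p is given. Under that filter 4 of the 9 passed both thresholds as lower with EC359 against HFD and 0 as higher against LFD. With an adjusted p under 0.05 at any fold change the numbers were 6926, 3545 and 7786. Clec3b (edgeR adjusted p = 0.00271) and Mfap4 (edgeR adjusted p = 0.00605) were then higher in HFD + EC359 than in LFD tumors. With counts thinned to the smallest library 5 of the 9 passed as lower with EC359 against HFD, since Prg4 and Slc4a4 no longer passed the filter and Dpt (-0.70) and Pi16 (-0.97) missed the fold, and 0 were called higher than in LFD tumors (Clec3b at 1.48). With the GC and length trend removed 414 genes were called between HFD + EC359 and LFD.

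When single libraries were left out, the genes called ranged from 702 to 777, 400 to 499 and 602 to 741. Of the 9 genes, 7 to 9 passed as lower with EC359 against HFD, and 0 to 2 as higher in HFD + EC359 than in LFD tumors.

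The log2 fold change between HFD + EC359 and LFD, close to 0 in these genes, reversed in Lgi2 with library totals (0.033), thinning (0.57) and the GC trend removed (0.023), and ranged from -0.17 to 0.11 with single libraries left out. It reversed with the GC trend removed in Prg4 (-0.033), Scn7a (-0.092) and Mfap5 (-0.027), and in Prg4 ranged from -0.26 to 0.60 with single libraries left out. Among the values between HFD and LFD that were given without a test, Scn7a moved to 2.21, Pi16 to 1.44 and Mfap5 to 2.12 with the GC trend removed, Lgi2 to 3.16 with thinning, Slc4a4 to 4.27 without the first LFD library and Dpt to 1.80 without the second.

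With the replicate number as a block, 754, 457 and 677 genes were called, 9 of the 9 genes passed as lower with EC359 against HFD and 1 as higher in HFD + EC359 than in LFD tumors, as without the block. Depth limits Prg4, Lgi2 and Slc4a4 most, which had 1 to 4 counts in each LFD library.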
